A study of Mus musculus with 47 samples.

Results

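The comparison described here is that of transgenic and wild-type mice on standard diet in the brainstem: 6 libraries of the TG_SD group and 5 of the WT_SD group, 11 of the 47 libraries of the series. Members were all genes whose counts averaged 50 or more across the 23 brainstem libraries, which were 13340 of the 33139 rows of the table, the row of the transgene included. TG mice carry a mutant human alpha-synuclein transgene under the Thy1 promoter, which drives expression in neurons of the central nervous system, on a C57BL/6 background, and the study kept them as a homozygous colony. WT mice descended from that outcross too but were bred in a colony of their own, so genotype and colony cannot be told apart. All mice of both groups were males that received the standard diet (SD) from 5 weeks to 12 months of age, and brainstem tissue was the medulla. The study isolated RNA of brainstem and of hippocampus from its mice and sequenced poly(A)-selected RNA as 75-base single-end reads.

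Alpha-synuclein is a small protein of presynaptic terminals that binds the membranes of synaptic vesicles. It is the main component of Lewy bodies, the neuronal inclusions of Parkinson disease, and mutant forms cause familial disease. The medulla holds the nuclei of lower cranial nerves and centres of breathing and circulation, and is among the regions where Lewy pathology is found early.

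Total counts were 10947603 to 12565584 in TG_SD and 10020784 to 14681252 in WT_SD, and the group means of the totals differed by -1492230 reads (TG_SD minus WT_SD) with p = 0.11 (two-sided exact permutation test, adjusted p = 0.442 over 4 library values, smallest possible p = 0.00217). One library stood apart: WT_SD replicate 6 lay outside the range of the other 4 WT_SD libraries in 66.5% of the tested genes, against 26.2% to 46.2% for those 4, so that results are also given without it where they rest on it. The summed levels of every list of cell type and tissue markers overlapped between the groups, and no marker was at 0 in all 11 libraries. Markers of the medulla were present in every library. Slc6a5, the glycine transporter of inhibitory neurons of brainstem and spinal cord, had normalised counts of 3556 to 5225 in TG_SD and 4246 to 5676 in WT_SD. A normalised count here is the read count scaled by the trimmed mean of M values (TMM) to the mean library size, and values are compared within a gene only. Summed levels of marker lists are in CPM, counts scaled to the same library total. Hox genes varied more between libraries than Slc6a5. Their summed level was 72.8 to 155 CPM in TG_SD and 40.3 to 198 in WT_SD, lowest in WT_SD replicate 4 and highest in WT_SD replicate 8. Hoxb6 had normalised counts of 15.9 to 157 in TG_SD and 4.10 to 122 in WT_SD. Whether the same part of the medulla was dissected from every mouse was not tested. In bulk tissue, fewer cells of a type and less RNA per cell cannot be told apart.

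The transgene row checked the labels. Its normalised counts in TG_SD were 50315, 55137 and 56727 (lowest, median and highest of 6 libraries), and those of WT_SD replicates 1, 4, 6, 7 and 8 were 7.37, 15.4, 13.3, 22.9 and 16.6. No WT_SD library came near a TG_SD library, and the log2 fold change was 11.75 ± 0.189 (SE) at an adjusted p of 9.09e-28 in edgeR's quasi-likelihood test with Benjamini-Hochberg adjustment, which is used throughout. Thy1, a glycoprotein of the neuronal surface whose promoter drives the transgene, had 89119.8, 96272 and 109536 in TG_SD against 6865, 7048, 5985, 6977 and 7068 in WT_SD. Its log2 fold change was 3.85 ± 0.0533 (SE) at an adjusted p of 2.82e-29, a fold of 14.4. Counts per gene do not separate reads of the endogenous Thy1 gene from reads of Thy1 sequence in an expression cassette, so the source of this difference cannot be told apart. The endogenous mouse alpha-synuclein gene had 695 ± 75.7 (SD, n = 6) in TG_SD and 641 ± 61.9 (SD, n = 5) in WT_SD. Its log2 fold change of 0.02 (SE 0.0578, adjusted p = 0.936) did not pass, and its sign turned under 4 of the alternatives given in the closing section.

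Which genes other than the transgene differed between TG and WT mice on SD? The medulla of TG_SD mice had more RNA of 2 zinc finger genes from 1 cluster, Gm15446 and Zfp932, of another zinc finger gene, Zfp382, and of the GABA-A receptor subunit gene Gabra2. It also had more RNA of Myoc, C3, Fabp7 and Cldn5, which encode myocilin, a complement component, a fatty acid binding protein and a tight junction protein. It had less RNA of Auh and Gstz1, which encode enzymes of amino acid breakdown. In numbers, 19 of 13340 genes (0.142%) were called with an adjusted p of 0.05 or less and a log2 fold change of 0.3 or more in either direction, with 16 higher in TG_SD (0.12% of those tested) and 3 lower (0.0225%). By annotation, 12 were protein-coding, 5 pseudogenes and 1 a long non-coding RNA, and the last was the transgene. The fit held 4 surrogate variables, which are components of variation estimated from the counts themselves that no label names. With none in the fit 4 genes were called, all among the 19: Thy1, the transgene, Gm15446 and Auh. Without WT_SD replicate 6 there were again 19 calls, of which 14 were among those reported and Myoc, Zfp932, Arap1, Fabp7 and Cldn5 were lost. An unadjusted p of 0.05 or less was found for 699 genes with higher values (5.24%) and 700 with lower values (5.25%). Libraries were separate mice. The p-values measure the spread between mice that is left after the 4 surrogate variables are fitted, not the whole spread between them.

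**Figure D1:**
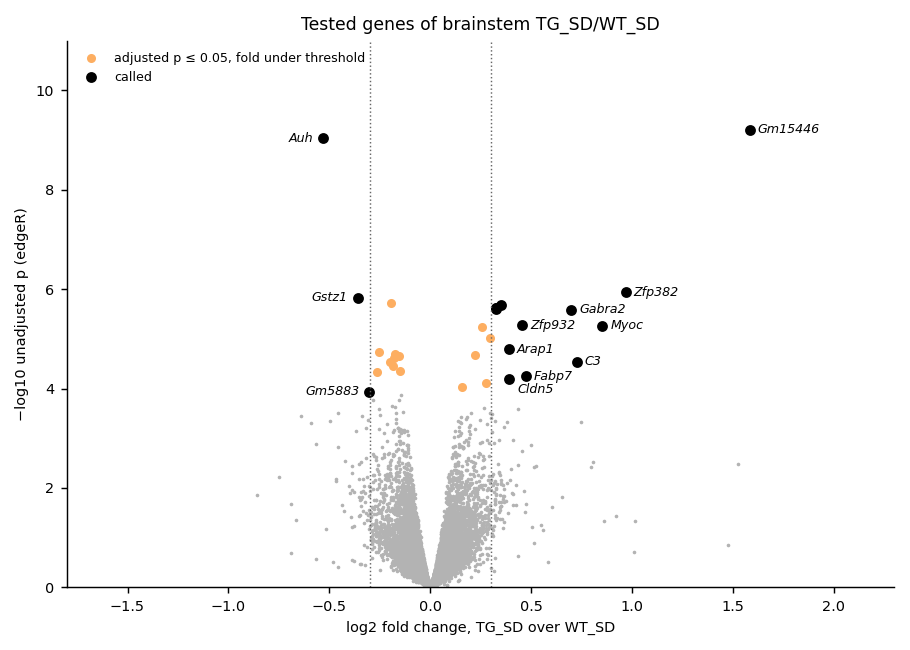
Log2 fold change of TG_SD over WT_SD (horizontal axis) against minus log10 of the unadjusted p (vertical axis) for 13335 of the 13340 tested genes. Black points are called genes, orange points the genes with an adjusted p of at most 0.05 whose fold change was under 0.3 on the log2 scale (dotted lines). The transgene, Thy1 and Gm29611 are among the 5 genes outside the axes, and Auh and Gm15446 lie far above the rest of the genes drawn.

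**Figure D2:**
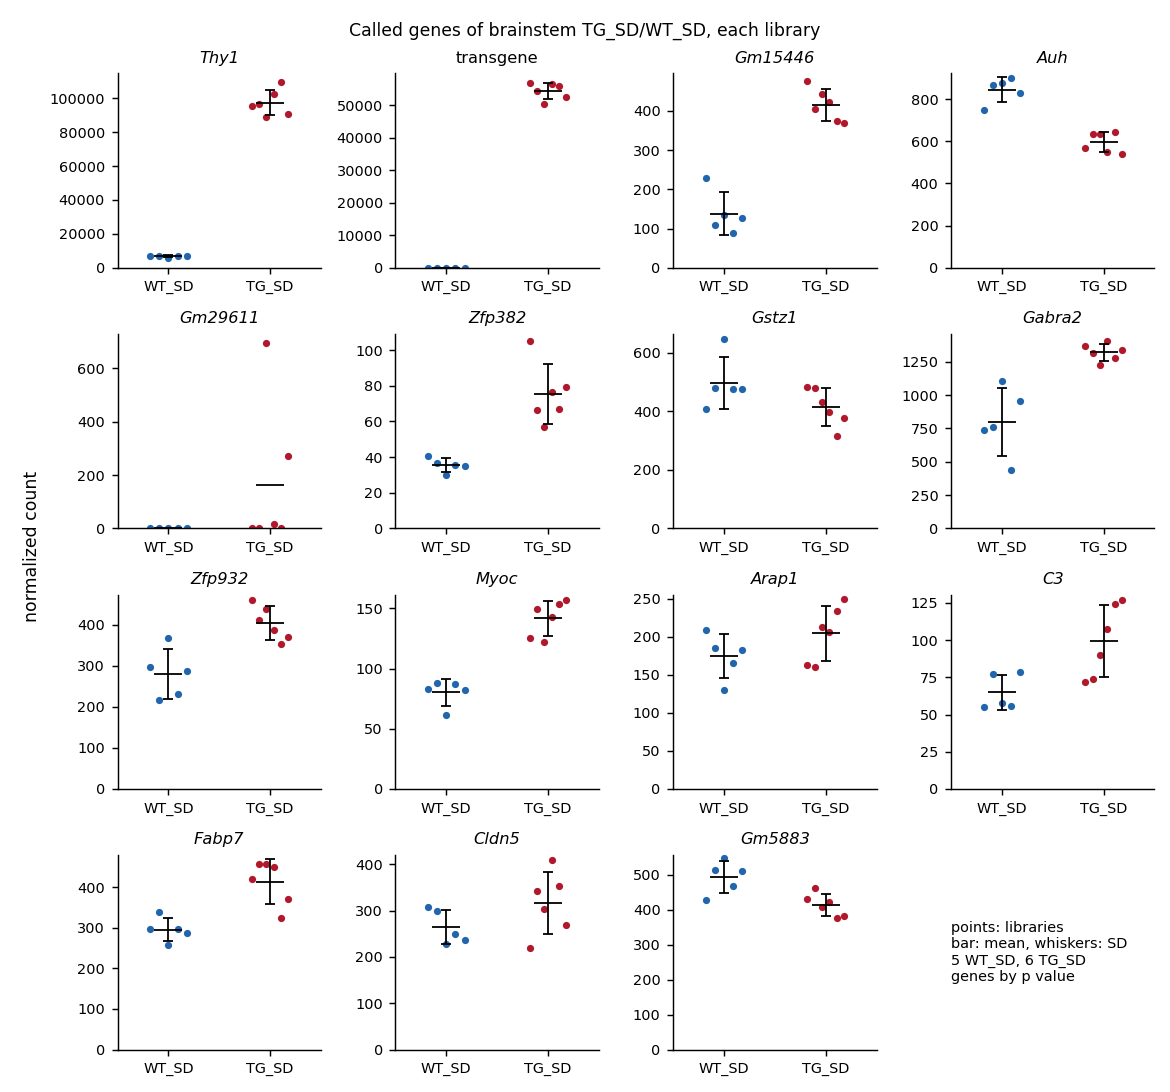
Normalised count (vertical axes, each from 0) of 15 called genes in each of the 5 WT_SD libraries (blue) and 6 TG_SD libraries (red). Horizontal bars are group means and whiskers are SD, left out for Gm29611, and the groups do not overlap for 7 of the genes.

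Of the 19 called genes, 7 had libraries that did not overlap between the groups: Thy1, the transgene, Gm15446, Zfp382, Gabra2 and Myoc above, and Auh below. Over all tested genes, the libraries did not overlap for 49 genes higher in TG_SD (0.367%) and 22 lower (0.165%). Without WT_SD replicate 6 these counts were 313 and 336, against 63 to 89 and 33 to 56 when any other library was left out. With all 11 libraries in random order, groups of 6 and 5 separate in a given direction with a chance of 0.0022 per gene. Smaller groups overlap less by construction, so this chance does not apply to the counts with a library left out. The share found with all libraries was above that chance for the higher genes and below it for the lower ones. A lack of overlap alone is therefore weak evidence for a single gene.

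Of the called mouse genes other than Thy1 and Gm29611, Gm15446 had the largest fold change. It encodes a protein of the KRAB zinc finger family, DNA-binding proteins known for silencing of transposable elements. TG_SD libraries had 369.7, 413 and 476 normalised counts, and WT_SD libraries 229.6, 109.8, 135, 88.2 and 126. Every TG_SD library lay above the highest WT_SD library, replicate 1. The log2 fold change was 1.58 ± 0.172 (SE) at an adjusted p of 2.72e-06, a fold of 2.995. Zfp932, which lies next to Gm15446 on chromosome 5 (GRCm38) and belongs to the same family, had 352, 399 and 461 in TG_SD against 296, 217, 368, 231 and 288 in WT_SD. Its groups overlapped at WT_SD replicate 6, and its log2 fold change was 0.45 ± 0.0811 (SE) at an adjusted p of 0.0047. Without that library the call was lost (adjusted p = 0.0565).

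The transcripts of these neighbours share sequence, which bears on how their counts can be read. Of all 75-base stretches of the Gm15446 transcripts, the length of the reads, 849 of 3684 (23.05%) were also found in another gene, and of those of Zfp932 884 of 3345 (26.4%). The longest coding run common to both was 195 bases. Shown are the last 75 bases of that run and the 45 that follow, from the GENCODE transcripts of GRCm38 on chromosome 5, at bases 1313 to 1432 of the Gm15446 transcript and 1410 to 1529 of the Zfp932 transcript. Capitals mark the 3 bases that differ.
Gm15446: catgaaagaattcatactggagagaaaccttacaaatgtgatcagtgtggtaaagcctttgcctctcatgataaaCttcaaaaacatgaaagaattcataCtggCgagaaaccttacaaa
Zfp932: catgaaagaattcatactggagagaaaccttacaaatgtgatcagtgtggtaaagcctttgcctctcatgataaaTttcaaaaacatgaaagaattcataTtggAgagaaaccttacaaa
A read that lies wholly within the lower-case run of 75 bases fits both genes, and how such reads were assigned is not given in the sources used here. The fold changes of both genes are therefore uncertain, although most of their stretches were in no other gene.

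Zfp382, a KRAB zinc finger gene on chromosome 7, shared no 75-base stretch with another gene. Its TG_SD libraries had 56.6, 71.7 and 105 normalised counts and its WT_SD libraries 40.5, 36.9, 30.1, 35.6 and 34.9. Counts were low in both groups and did not overlap, and the log2 fold change was 0.97 ± 0.157 (SE) at an adjusted p of 0.00257. Of the list of zinc finger genes, 301 were tested, 21 had an unadjusted p of at most 0.05 with higher and 5 with lower values in TG_SD. The share at that p was 8.64%, below the 10.5% of all tested genes. A positive fold change was found for 196 of the 301, beside 6746 of all 13340 genes. The list's median log2 fold change was 0.04, beside 0.0013 for all genes, and 0.06 without surrogate variables. Zfp536, a repressor of neuronal differentiation, had the smallest p among the negative ones, with -0.22 (SE 0.0594, unadjusted p = 0.00112, adjusted p = 0.141).

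Gabra2 encodes the alpha2 subunit of the GABA-A receptor, the chloride channel of fast inhibition. Its TG_SD libraries were close together at 1225, 1326 and 1409 normalised counts, whereas the WT_SD libraries were spread over 735, 761, 1107, 434 and 957. The lowest WT_SD library was replicate 7 and the highest replicate 6, both below all TG_SD libraries. The means were 1322 ± 64.3 (SD, n = 6) and 799 ± 254 (SD, n = 5), and the log2 fold change was 0.70 ± 0.119 (SE) at an adjusted p of 0.00265. Without surrogate variables it was 0.73 with an adjusted p of 0.0839. Of the 13 tested GABA-A subunit genes 2 had an unadjusted p of at most 0.05, both higher, Gabra2 and Gabra6, and the list median was 0.04. Gabra5, with the smallest p among subunits of negative sign, had -0.10 (SE 0.0572, unadjusted p = 0.0867, adjusted p = 0.544).

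Gabra6, a subunit known from granule cells of the cerebellum, ranged from 23.3 to 278 in TG_SD and from 6.98 to 70.8 in WT_SD, with a log2 fold change of 1.01 (SE 0.484, unadjusted p = 0.0452, adjusted p = 0.459). Cbln3, also of cerebellar granule cells, had 55.5 to 525 and 26.2 to 202. The summed level of the 7 cerebellar markers was 86.3 to 235 CPM in TG_SD (median 132) and 91.8 to 122.97 in WT_SD (median 101), highest in TG_SD replicate 2. Of the 5 tested members 2 had an unadjusted p of at most 0.05, both higher in TG_SD. The list's median log2 fold change was 0.56, 0.77 without surrogate variables and 0.90 without WT_SD replicate 6. In each of these 2 other fits 3 members were higher at that p and 0 lower. The cerebellum lies against the medulla, and the part of adhering tissue in these values was not tested.

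Auh had the smallest p of the genes called lower in TG_SD. It encodes a mitochondrial hydratase of leucine breakdown that also binds AU-rich RNA. TG_SD libraries had 539, 601 and 643 normalised counts and WT_SD libraries 749, 868, 875, 902 and 828, so that the highest TG_SD library lay below the lowest WT_SD library. The means were 595 ± 47.4 (SD, n = 6) and 844 ± 59.6 (SD, n = 5), and the log2 fold change was -0.53 ± 0.0589 (SE) at an adjusted p of 3.09e-06, a fold of 0.693. Among the 16 tested genes of leucine breakdown, Auh and Bcat1, the cytosolic transaminase of the first step, had an unadjusted p of at most 0.05, both lower in TG_SD. The list median was -0.0001, and Dld, a subunit shared by mitochondrial dehydrogenase complexes, had 0.04 (SE 0.0322, unadjusted p = 0.254, adjusted p = 0.734).

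Gstz1, an enzyme of tyrosine breakdown, had 315, 415 and 483 in TG_SD and 409, 478, 647, 477 and 476 in WT_SD. The groups overlapped, with WT_SD replicate 6 highest, and the log2 fold change was -0.36 ± 0.0590 (SE) at an adjusted p of 0.00265. Of its 75-base stretches 7.89% were shared, mostly with Pomt2. The third gene called lower was Gm5883, a pseudogene with 8.55% shared stretches, at -0.30 ± 0.0676 (SE) at an adjusted p of 0.0469. It did not pass without TG_SD replicate 1, 2, 5, 6, 7 or 8 or WT_SD replicate 4, 7 or 8, with adjusted p of 0.0559 to 0.163.

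Myoc, which encodes the secreted glycoprotein myocilin, had 122, 146 and 157 normalised counts in TG_SD and 83.5, 88.2, 61.1, 87.4 and 82.0 in WT_SD. The groups did not overlap, WT_SD replicate 6 was lowest, and the log2 fold change was 0.85 ± 0.152 (SE) at an adjusted p of 0.0047. The call was lost without WT_SD replicate 6 (adjusted p = 0.0892). The 7 markers of meningeal fibroblasts, Myoc among them, summed to 68.3 to 84.7 CPM in TG_SD and 63.1 to 71.3 in WT_SD, with Myoc alone of the 4 tested at an unadjusted p of at most 0.05. The part of meningeal tissue in the Myoc values was not tested.

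C3 encodes the central component of complement. TG_SD libraries had 72.2, 98.9 and 127 and WT_SD libraries 55.2, 76.9, 57.6, 56.0 and 78.5, so the groups overlapped, and the log2 fold change was 0.73 ± 0.146 (SE) at an adjusted p of 0.0156. The call was lost without TG_SD replicate 7 or 8 or WT_SD replicate 1, 4 or 7, with adjusted p of 0.0503 to 0.0987. Of the 20 tested genes of microglia activation and complement, 18 had a positive fold change, 7 with an unadjusted p of at most 0.05 against 1 of the negative ones, and without surrogate variables these counts were 2 and 0. The 7 were C3, C1qa, C1qb and C4b of complement, Apoe, Lyz2 and H2-Aa. The list median was 0.24, 0.13 without surrogate variables and 0.31 without WT_SD replicate 6. Spp1, the secreted phosphoprotein osteopontin, was the negative one with -0.17 (SE 0.0588, unadjusted p = 0.00626, adjusted p = 0.26). C1qa, a chain of the first complement component, had 0.27 (SE 0.1103, unadjusted p = 0.0204, adjusted p = 0.36). The summed level of microglia markers overlapped between the groups, with 185 to 214 CPM in TG_SD and 181 to 209 in WT_SD, and 1 of 6, C1qa, had an unadjusted p of at most 0.05.

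Fabp7, the fatty acid binding protein of astrocytes and radial glia, had 325, 434 and 458 in TG_SD and 297, 338, 258, 298 and 287 in WT_SD. Only TG_SD replicate 7 reached into the WT_SD range, and the log2 fold change was 0.47 ± 0.1001 (SE) at an adjusted p of 0.0257. It did not pass without TG_SD replicate 1, 2, 5 or 6 or WT_SD replicate 1, 6 or 8, with adjusted p of 0.0501 to 0.341, the last of these without WT_SD replicate 6, where the log2 fold change was 0.28. All 6 astrocyte markers had a positive fold change with a median of 0.15, and Gja1, Aqp4 and Slc1a3 had an unadjusted p of at most 0.05, 1 of the 6 without WT_SD replicate 6. Gja1, the gap junction protein connexin 43, had 3707 ± 274 (SD, n = 6) in TG_SD and 3308 ± 139 (SD, n = 5) in WT_SD, a log2 fold change of 0.16 (SE 0.0467, unadjusted p = 0.00154, adjusted p = 0.151). Of the 14 genes of astrocyte reactivity 12 were positive, and Fabp7, Stat3, Osmr and C4b had an unadjusted p of at most 0.05, 2 of the list without surrogate variables. The astrocyte markers summed to 2649 to 3285 CPM in TG_SD and 2620.1 to 2969 in WT_SD, so their levels overlapped, and their part in the Fabp7 difference was not tested.

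Cldn5, the tight junction protein of brain endothelium, had 219, 322 and 409.9 in TG_SD and 307, 299.6, 228, 249 and 236 in WT_SD. TG_SD replicate 1 was below every WT_SD library, and the log2 fold change was 0.39 ± 0.0836 (SE) at an adjusted p of 0.0284. It did not pass without TG_SD replicate 2, 5 or 6 or WT_SD replicate 1, 4, 6 or 8, with adjusted p of 0.0528 to 0.201. Endothelial markers summed to 262 to 307 CPM in TG_SD and 239.6 to 291 in WT_SD. Of the 5 tested, Cldn5 and Slco1a4 had an unadjusted p of at most 0.05, and the list median turned from 0.07 to -0.02 without WT_SD replicate 6. Arap1, a GTPase-activating protein for Arf proteins, had 160.4 to 249 and 130.2 to 209 with a log2 fold change of 0.39 ± 0.0750 (SE) at an adjusted p of 0.012, lost without TG_SD replicate 8 (adjusted p = 0.0748) or WT_SD replicate 6 (adjusted p = 0.0507).

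Gm29611, a long non-coding RNA on chromosome 1, had 0 counts in 3 TG_SD libraries and 16.7, 273 and 694 normalised counts in replicates 6, 8 and 5, against 0 to 2.46 in WT_SD. Its fitted log2 fold change of 10.505 (SE 1.54) therefore describes 3 mice, and its adjusted p was 0.000549 with surrogate variables and 0.788 without. The call was also lost without TG_SD replicate 8 (adjusted p = 0.496) or WT_SD replicate 8 (adjusted p = 1).

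A further 14 genes had an adjusted p of at most 0.05 with a log2 fold change under 0.3 in size, 5 higher and 9 lower. Without surrogate variables none of the 14 had an adjusted p of at most 0.05, with values of 0.462 to 0.788. Rph3a, which encodes the synaptic vesicle protein rabphilin, had 5340.1 to 6229 normalised counts in TG_SD and 6236 to 7269.9 in WT_SD, with no overlap and a log2 fold change of -0.17 ± 0.0341 (SE) at an adjusted p of 0.0131. Rab11fip5, an effector of the recycling endosome protein Rab11, had -0.19 ± 0.0325 (SE) at an adjusted p of 0.00265. Nefh, the heavy neurofilament subunit, had 7088 ± 1016 (SD, n = 6) against 8682 ± 1333 (SD, n = 5) and a log2 fold change of -0.20 ± 0.0403 (SE) at an adjusted p of 0.0156. Hapln4, a link protein of perineuronal nets, had -0.18 ± 0.0371 (SE) at an adjusted p of 0.0177, and Atp2b2, a plasma membrane calcium pump, had -0.15 ± 0.0300 (SE) at an adjusted p of 0.0131. Luzp1, at -0.18, and the proteasome subunit gene Psmc4, at -0.15, completed the named genes on this side, with the pseudogenes Gm6992 at -0.25 and Gm6063 at -0.26. On the other side Tm9sf2, a membrane protein of the endosomal and Golgi system, did not overlap between the groups and had 0.16 ± 0.0350 (SE) at an adjusted p of 0.0393. Rps27rt, Gm4977 and Gm10095 were also on this side, with shared stretches of 90.3%, 7.24% and 72.1% and log2 fold changes of 0.27, 0.26 and 0.22. For most genes the difference was small: 73.7% had a log2 fold change under 0.1 in size and 189 (1.42%) one of at least 0.3, at a median SE of 0.0685.

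Libraries of 64 genes that were not called did not overlap, and how many of these genes separated by chance was not tested. The largest fold changes among them were those of Fam228b, with 62.3 to 84.4 normalised counts in TG_SD and 34.4 to 56.7 in WT_SD and a log2 fold change of 0.50 (SE 0.140, unadjusted p = 0.00138, adjusted p = 0.149), and H2-Aa, a chain of MHC class II, with 51.1 to 78.2 and 35.8 to 49.1 and 0.47 (SE 0.172, unadjusted p = 0.0113, adjusted p = 0.293). The next were Gas1, a membrane co-receptor of hedgehog signalling, at 0.36, Casq2, a calcium store protein, at 0.35, Rsbn1 at 0.32, Egflam, a matrix protein, at 0.30, and Ctnnd1, the catenin p120 of adherens junctions, at 0.26. Lower in TG_SD were the pseudogenes Gm4691 at -0.34, Gm10313 at -0.31 and Rps2-ps4 at -0.31. None of the 10 passed the adjustment, with adjusted p of 0.0941 to 0.425.

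The lists of neuronal genes did not move one way. Members were counted where the unadjusted p was 0.05 or less. Lists of synaptic vesicles, of neurofilaments and microtubules and of calcium, sodium and potassium channels were more often lower than higher in TG_SD. GABA-A receptor subunits, glycine and GABA release, and AMPA, NMDA and kainate receptors had 2 higher and 0 lower each. These were 15.4%, 15.4% and 13.3% of the tested members, not far from the 10.5% of all tested genes. Leaving out WT_SD replicate 6 gave 2 higher and 1 lower, 1 and 0, and 1 and 1. The counts of these receptor and release lists therefore show no clear direction. Of 31 tested genes of synaptic vesicles and release, 10 had an unadjusted p of at most 0.05 and all of these were lower in TG_SD, with 8 of the 31 positive and a median of -0.05. The 10 became 3 without WT_SD replicate 6 and 4 without surrogate variables, where the counts over all genes fell to 437 higher and 382 lower. Sv2c, a synaptic vesicle glycoprotein, had 3344 ± 458 (SD, n = 6) against 3903 ± 560.0 (SD, n = 5), a log2 fold change of -0.13 (SE 0.0380, unadjusted p = 0.00214, adjusted p = 0.179). Of 21 neurofilament and microtubule-associated genes, 8 were lower and 1 higher at that threshold, both with and without WT_SD replicate 6, and 5 and 0 without surrogate variables, and the median was -0.06. The 1 higher was Kif5b, a heavy chain of the kinesin motor, at 0.12 (SE 0.0486, unadjusted p = 0.0243, adjusted p = 0.384). Calcium channel genes had 3 lower and 0 higher of 16, with Cacna1a, the pore of P/Q-type channels, at -0.17 (SE 0.0554, unadjusted p = 0.00552, adjusted p = 0.251). Sodium and potassium channel genes had 5 lower and 1 higher of 22, with Scn8a, a sodium channel of the axon initial segment, at -0.14 (SE 0.0329, unadjusted p = 0.000299, adjusted p = 0.0903) and the accessory subunit gene Scn2b at 0.09 (SE 0.0347, unadjusted p = 0.0202, adjusted p = 0.359). There were 3 lower and 0 higher both without WT_SD replicate 6 and without surrogate variables. The 5 neuron markers had a median of -0.06 and summed levels of 4491 to 5108 CPM in TG_SD and 4753 to 5086 in WT_SD, which overlapped.

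The genes whose human counterparts cause familial Parkinson disease gave none of 19 at an unadjusted p of at most 0.05 in edgeR, and 1, lower in TG_SD, without surrogate variables. Their median was -0.03, and Fbxo7, a ubiquitin ligase subunit, had the smallest p with -0.11 (SE 0.0565, unadjusted p = 0.054, adjusted p = 0.487). Sncb, which encodes beta-synuclein, had -0.05 (SE 0.0373, unadjusted p = 0.196, adjusted p = 0.68). A set of 7 genes that the study names was Ndufa2, Cox6a1, Uqcrq, Stub1, Uchl1, Atp13a2 and Mif, and it shares members such as Atp13a2 with the list of 19. These 7 had log2 fold changes from -0.05 to 0.10, with adjusted p of at least 0.551. Without surrogate variables all 7 were negative, from -0.25 to -0.02, with adjusted p of at least 0.801, and the mean normalised count was lower in TG_SD for all 7. Respiratory complex I had 7 lower and 0 higher of 36 and complexes II to V 5 lower and 0 higher of 41, with medians of -0.01 and -0.04. These became 4 and 3 lower without WT_SD replicate 6, and 0 and 0 without surrogate variables, where the median of complexes II to V turned to 0.0033. Mitochondrial ribosomal protein genes had 3 higher and 2 lower of 76, with Mrpl21 at -0.26 (SE 0.0610, unadjusted p = 0.000258, adjusted p = 0.0849). Cytosolic ribosomal protein genes had 5 higher and 6 lower of 79, with Rpl9 at 0.15 (SE 0.0372, unadjusted p = 0.000474, adjusted p = 0.0998), and 10 higher and 0 lower without WT_SD replicate 6 and 1 and 0 without surrogate variables.

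Cholesterol synthesis had 6 lower and 0 higher of 23, with Stard4, a sterol carrier, at -0.18 (SE 0.0527, unadjusted p = 0.00214, adjusted p = 0.179). Without WT_SD replicate 6 this list had 5 lower and 2 higher, and without surrogate variables 4 lower and 0 higher. In the list of fatty acid oxidation and PPAR targets, the lipid droplet gene Plin2 had 0.27 (SE 0.0847, unadjusted p = 0.00377, adjusted p = 0.22) and Ucp2, a mitochondrial carrier, -0.20 (SE 0.0674, unadjusted p = 0.00538, adjusted p = 0.25), among 2 higher and 1 lower of 25. Myelin genes had 4 higher and 0 lower of 18, among them Ugt8a, an enzyme of myelin galactolipid synthesis, at 0.15 (SE 0.0514, unadjusted p = 0.00637, adjusted p = 0.26) and Ppp1r14a, a phosphatase inhibitor subunit, at 0.18 (SE 0.0767, unadjusted p = 0.0249, adjusted p = 0.384), and none of them had an unadjusted p of at most 0.05 without WT_SD replicate 6. Heat shock genes went from 5 higher of 24 to 0 without that library. Lysosome genes had 4 higher and 1 lower of 39, with 32 positive, and 5 and 1 without it. Without surrogate variables the myelin list had 2 higher and the lysosome list 2 higher and 0 lower. Autophagy had 1 higher, Becn1, which acts in the start of autophagosome formation, at 0.14 (SE 0.0445, unadjusted p = 0.00455, adjusted p = 0.243), and 1 lower of 28. The unfolded protein response had 2 higher of 16, with the transcription factor gene Atf5 at 0.29 (SE 0.0985, unadjusted p = 0.00682, adjusted p = 0.26).

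Monoamine genes had a median of 0.19 over 11, 0.07 without WT_SD replicate 6, and 1 higher, Maoa, which degrades monoamines, at 0.12 (SE 0.0524, unadjusted p = 0.0327, adjusted p = 0.414). Clock and immediate early genes, which follow the hour and handling, had 1 of 16 lower, Per1 at -0.26 (SE 0.1102, unadjusted p = 0.0234, adjusted p = 0.383), and 1 of 11 higher, Jund at 0.27 (SE 0.108, unadjusted p = 0.0184, adjusted p = 0.345), while Fos had -0.29 (SE 0.248, unadjusted p = 0.253, adjusted p = 0.733). Of the pericyte and smooth muscle markers, the channel gene Kcnj8 had -0.34 (SE 0.131, unadjusted p = 0.0151, adjusted p = 0.322). Interferon and MHC class I genes had none of 13 at an unadjusted p of at most 0.05, with a median of 0.05 and of -0.07 without surrogate variables. Blood genes had a median of -0.35 over 5, which turned to 0.46 without WT_SD replicate 6. Choroid plexus markers ranged most, with 18.2 to 3027 CPM in TG_SD and 22.1 to 1609 in WT_SD, and their median turned from -0.02 to 0.41 without surrogate variables. Hox genes and the medulla markers had medians of -0.11 and -0.10 over 9 and 12 genes, and -0.32 and -0.26 without WT_SD replicate 6.

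**Figure D3:**
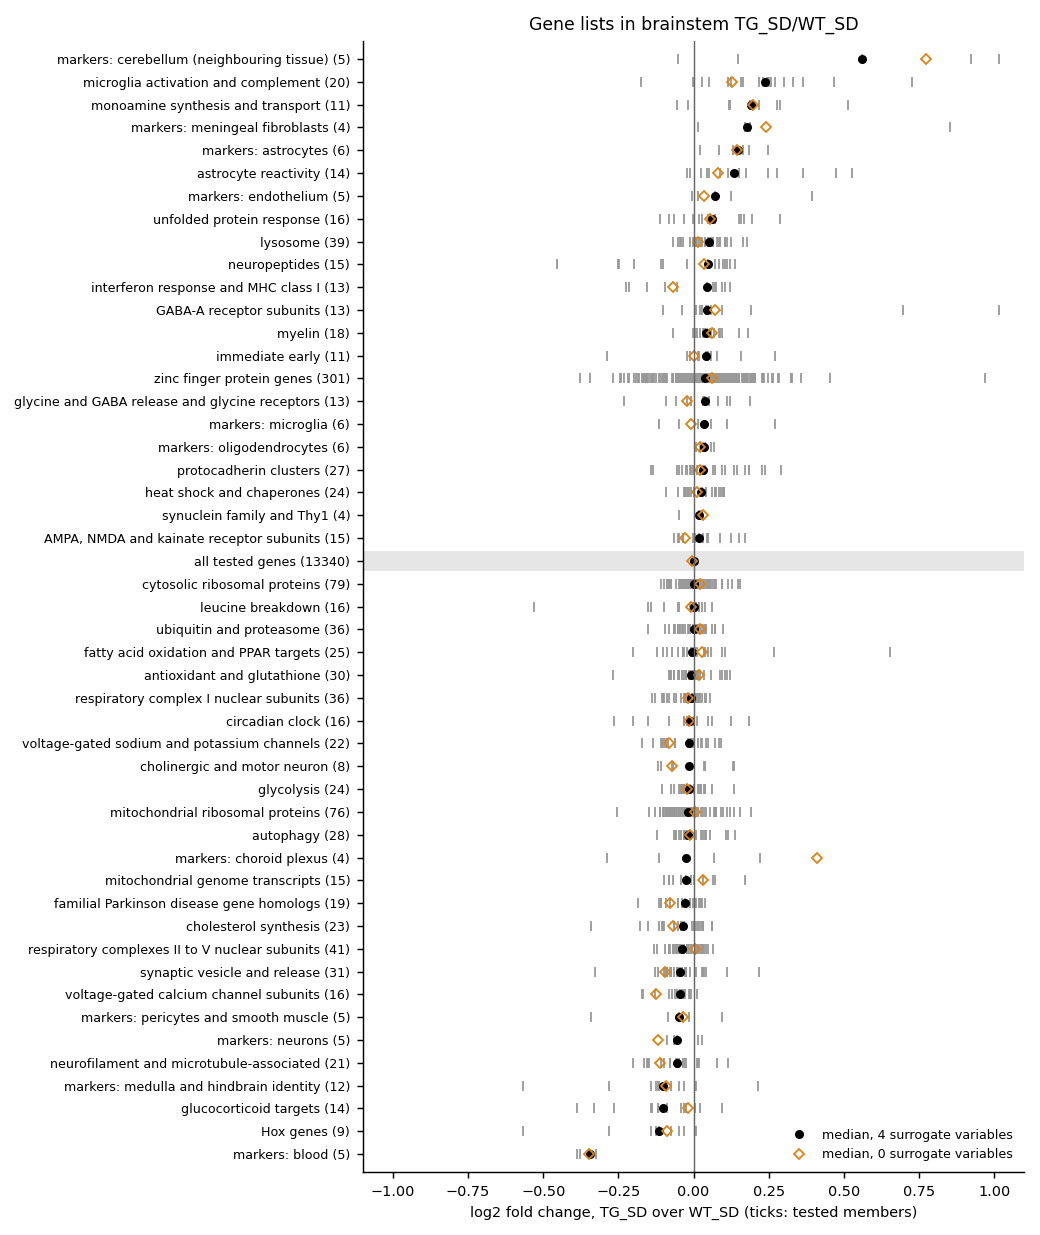
Log2 fold change of TG_SD over WT_SD (horizontal axis) for the tested members (grey ticks) of 48 lists with at least 4 tested genes, the number in brackets. Black points are list medians in the fit with 4 surrogate variables and orange diamonds those with none, the grey band marks all tested genes with a median of 0.0013, and 1 member lies outside the axis.

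Did the same genes differ between TG and WT mice on the high fat diet (HFD)? That contrast used other mice, 6 per genotype, that received HFD over the same ages, in the same fit, and 7 genes were called in it (0.0525%). Of the 19 genes called on SD, 5 passed there: Thy1 with 3.76 (SE 0.0591, adjusted p = 9.38e-28), the transgene with 11.30 (SE 0.186, adjusted p = 1.85e-27), Gm15446 with 1.77 (SE 0.213, adjusted p = 2.04e-05), Gabra2 with 0.74 (SE 0.144, adjusted p = 0.0251) and Zfp932 with 0.57 (SE 0.101, adjusted p = 0.0116). Fold changes of 16 of the 19 had the same sign on HFD, beside 56.5% of all tested genes. Gabra2 libraries again did not overlap, with 1247 to 1579 normalised counts in TG_HFD and 672 to 1073 in WT_HFD. Auh libraries did not overlap either, at 539.7 to 613 and 617 to 826, but the log2 fold change of -0.30 (SE 0.0724, adjusted p = 0.221) did not pass.

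The interaction term tests whether the genotype difference itself differed between the diets. It was called for 1 gene of 13340 (0.0075%), Zfp382, whose log2 fold change of 0.97 on SD stood against -0.39 (SE 0.180, adjusted p = 0.883) on HFD, a difference of -1.36 (SE 0.236, adjusted p = 0.0467). It was not called with 0, 1, 2 or 3 surrogate variables, and was called in DESeq2. On HFD the Zfp382 counts were 41.1 to 83.7 in TG and 33.9 to 81.0 in WT. Of the 19 called genes 7 had an unadjusted interaction p of at most 0.05, and over all genes 644 did. For Auh the interaction was 0.23 (SE 0.0933, adjusted p = 0.993) and for Gabra2 0.04 (SE 0.186, adjusted p = 0.997).

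In the hippocampus, TG_SD and WT_SD were compared in 6 libraries each, and 12 of 13272 genes (0.0904%) were called. Of the 18 genes called in brainstem and tested there, 5 passed: Thy1 with 3.71 (SE 0.0353, adjusted p = 4.95e-38), the transgene with 11.59 (SE 0.119, adjusted p = 3.24e-37), Gm15446 with 1.70 (SE 0.228, adjusted p = 4.63e-05), Zfp932 with 0.57 (SE 0.0961, adjusted p = 0.00245) and Auh with -0.52 (SE 0.0895, adjusted p = 0.00284). Signs were the same for 16 of 18, beside 55.1% of the 12619 genes tested in both regions. Gabra2 had 0.47 (SE 0.149, adjusted p = 0.246). Its hippocampal TG_SD libraries had 3543 to 4022 normalised counts and the WT_SD libraries 1049 to 3896, so the WT group was again the more spread. The remaining genes had hippocampal fold changes that did not pass, from -0.19 for Gstz1 to 0.24 for Myoc, other than Gm29611, whose libraries there held 0 to 18.7 normalised counts in TG_SD and 0 to 1022 in WT_SD. The study describes RNA of both regions from 6 mice per group, and the labels do not say which libraries of the regions share a mouse.

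**Figure D4:**
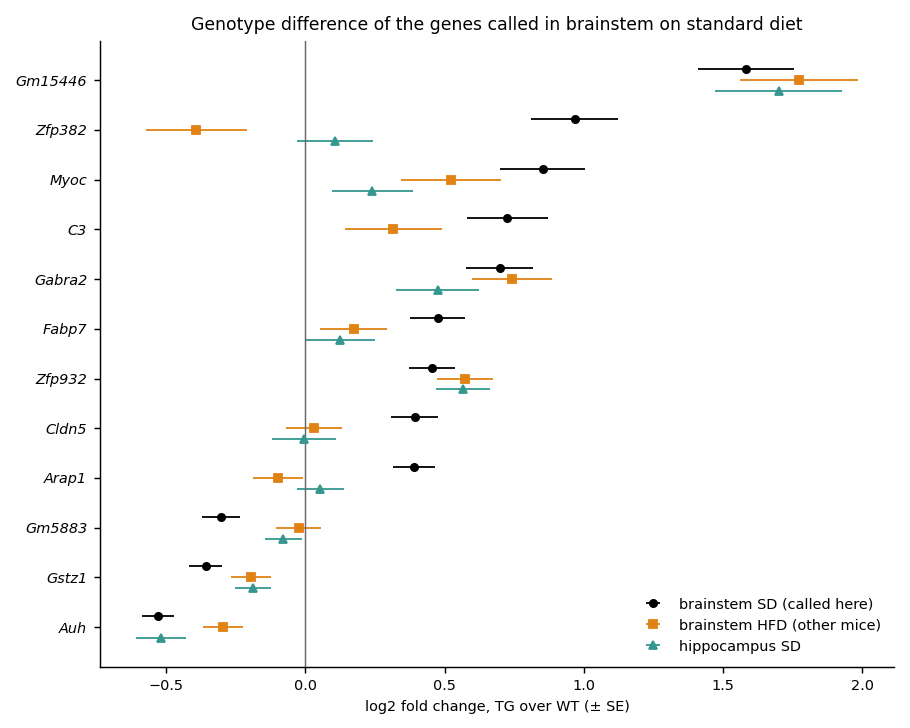
Log2 fold change of TG over WT (horizontal axis, points with SE as whiskers) for 12 called genes in brainstem on SD (black circles), brainstem on HFD (orange squares) and hippocampus on SD (green triangles). The transgene, Thy1 and Gm29611 are left out, C3 has no hippocampal value, and Gm15446 and Zfp932 lie at like values in all 3 contrasts while Zfp382 lies on either side of 0.

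**Figure D5:**
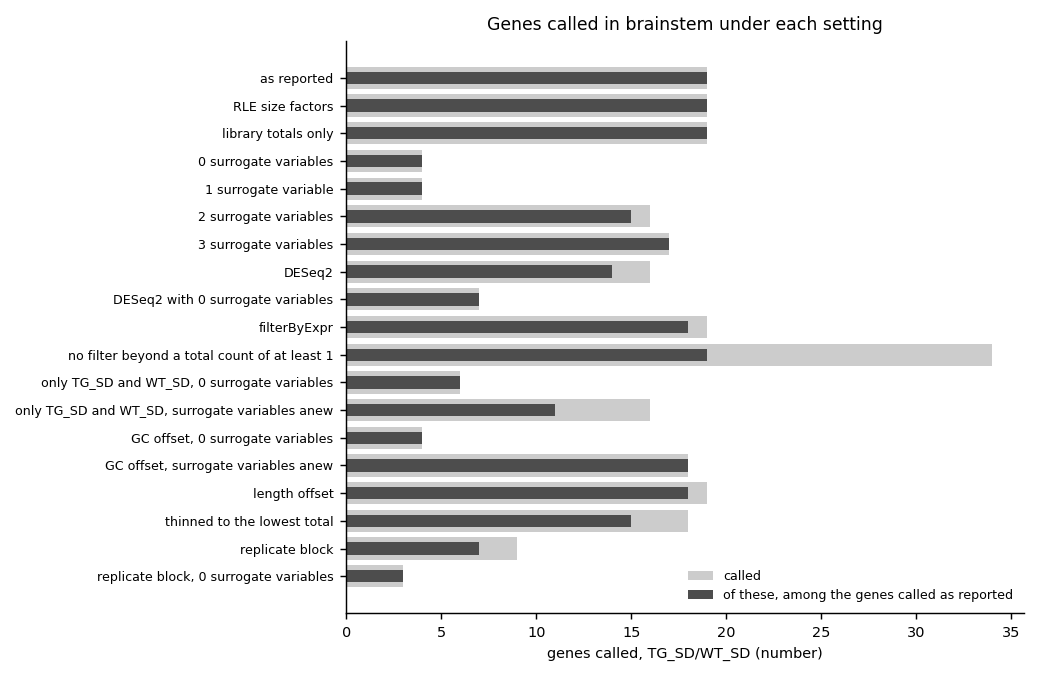
Number of genes called between TG_SD and WT_SD (light bars, from 0) and how many of them were among the 19 reported (dark bars) under each setting of the analysis. With 0 or 1 surrogate variable 4 genes were called, and with 2 and 3 variables 15 and 17 of the 19.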

How the data were processed

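Poly(A) RNA of brainstem (23 libraries) and hippocampus (24 libraries) was sequenced as 75-base single-end reads from 500 ng of RNA. The deposited values are raw counts of reads per gene and library, which the authors made by aligning reads with STAR 2.7.9a to the mouse genome (GRCm39, Ensembl release 104) with the human transgene added, after FastQC 0.11.9. The counting tool, its use of strand and its treatment of reads that fit several genes are not given in the sources used here. No count column was left out, and every library was grouped by its labels.

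Genes whose counts averaged 50 or more across the brainstem libraries were tested in edgeR 4.0.16 (R 4.3.3) with TMM factors and the quasi-likelihood test, on 4 groups (genotype by diet) plus 4 surrogate variables from sva 3.50.0, with Benjamini-Hochberg adjustment over all tested genes. The hippocampus table was fitted in the same way. The thresholds, an adjusted p of 0.05 or less and a log2 fold change of 0.3 or more in either direction, follow the study, which used DESeq2 1.32.0. Groups of library values were compared by exact permutation tests. Symbols, chromosomes and transcripts came from GENCODE M21 of GRCm38, another build than that of the alignment, so no gene coordinates are given, and 20 tested genes had no match. Shared sequence was measured as the share of a gene's 75-base transcript stretches found in another gene.

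Genes named are all called genes, the transgene, the endogenous mouse alpha-synuclein gene and Thy1, up to 10 genes with the largest fold changes among those not called whose libraries did not overlap, 12 genes that the study or earlier results name (Auh, Gabra2, Zfp932 and Ppp1r14a among them), and the member of each list with the lowest p in each direction. The 14 genes with an adjusted p of at most 0.05 and a smaller fold change, and list members given without a value, were named after their values were seen. Of the genes that these rules pick, 5 are not reported here. The members and the 52 lists were chosen with earlier results of these data known, and no p-value was computed for a list. Alternatives were other size factors, other numbers of surrogate variables, DESeq2 1.42.0, other filters, offsets for GC content or transcript length, thinning to the lowest total, a replicate block and leaving out each library. The scripts were tested on simulated data.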

Additional observations from a re-analysis of the deposited data

Results flagged for a closer look

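In 13 of 154 groups of libraries tested, 1 library stood apart from the rest of its group by Dixon's 95% criterion, the gap to the nearest library over the whole range. Chance flags about 1 in 20 of independent groups. The 13 cannot be judged by that rate, because the groups share the same 11 libraries and many of their genes were picked from this comparison. For 8 of the flagged genes the library was WT_SD replicate 6. It was the lowest of its group for Myoc (normalised count 61.1 against 82.0 to 88.2 in the other WT_SD libraries, and likewise for the next genes), Thy1 (5985 against 6865 to 7068), Gas1 (42.5 against 49.1 to 51.3), Rab11fip5 (1211 against 1591 to 1726) and Hapln4 (1772 against 2333 to 2477). It was the highest for Maoa (1068 against 902 to 930.0), Psmc4 (1224 against 1077 to 1107) and Gm4977 (1497 against 989.8 to 1133). Gja1 was highest in WT_SD replicate 4 (3549.5 against 3195 to 3278). Among TG_SD libraries, Rps2-ps4 was lowest in replicate 1 (49.1 against 68.4 to 73.6), Cbln3 highest in replicate 2 (525 against 55.5 to 224), and Egflam (98.9 against 79.5 to 82.2) and Atf5 (172 against 126 to 139) highest in replicate 6.

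The genotype difference of Zfp382 differed between the diets with 4 surrogate variables and in DESeq2, but not at the threshold with 0, 1, 2 or 3. In edgeR's interaction term the difference in log2 fold change, HFD minus SD, was -1.36 (SE 0.236, adjusted p = 0.0467), with all 6 TG_SD libraries above all 5 WT_SD libraries and overlapping groups on HFD.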

How the results depend on the processing

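The number of genes called (19) was 19 with RLE size factors or library totals only, 17 with 3 and 16 with 2 surrogate variables, 16 in DESeq2, 19 with filterByExpr or a length offset, 18 with thinned counts, 18 with a GC offset and 16 with the 11 libraries of both groups alone, each with surrogate variables. It was 4 with 0 or 1 surrogate variable, 4 with a GC offset and 0 surrogate variables, 6 with both groups alone and 0 surrogate variables, 7 in DESeq2 with 0 surrogate variables, 34 with no filter beyond 1 count in all, and 33 without a fold threshold. Leaving out 1 library gave 15 to 22 calls, and with 0 surrogate variables, an alternative added after seeing the data, 4 to 8, the 8 without WT_SD replicate 6. Over 40 alternative fits Thy1, the transgene and Gm15446 were called in all 40, Auh in 39, Gabra2 and Zfp382 in 24, Myoc in 23, Zfp932 and Gstz1 in 22, C3 in 17, Cldn5 in 12, Fabp7 in 10 and Gm5883 in 8, and no called gene changed sign. Genes without overlap between the groups numbered 71, 70 and 71 with the other size factors, and 97 to 649 with 1 library left out, the 649 without WT_SD replicate 6. A group with fewer libraries overlaps less by construction. The interaction among called genes went from 1 to 0 with 0, 1, 2 or 3 surrogate variables, where the cause was not tested. Of the called genes 4 to 5 passed on HFD and 5 in hippocampus under each alternative run. The endogenous mouse alpha-synuclein gene turned from 0.02 to -0.0005 with no filter, -0.0063 with a GC offset, and to -0.0109 without WT_SD replicate 4, and ranged from -0.0414 (without TG_SD replicate 7) to 0.0435 with 1 library left out, all inside its SE. The groups share 4 replicate numbers, and the deviations of these libraries from their group means correlated with r of -0.26 to 0.166. Library pairs with other numbers ranged from -0.47 to 0.39. These values cannot decide whether the numbers pair mice, and the labels do not say. A replicate block gave 9 calls, 7 of them among the 19, and 3 with 0 surrogate variables (added after seeing the data).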

Other observations

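Further gene lists, counted by an unadjusted p of at most 0.05 in edgeR between TG_SD and WT_SD, are given here beside 699 higher and 700 lower of all 13340 genes. Genes of glycine and GABA release and glycine receptors, the fast inhibitory system of the medulla, had 2 higher and 0 lower of 13 with a median log2 fold change of 0.04, and that median was -0.02 without surrogate variables. Subunits of AMPA, NMDA and kainate receptors, the channels of fast excitation, had 2 higher and 0 lower of 15 with a median log2 fold change of 0.02 (-0.03 without surrogate variables). Cholinergic and motor neuron genes had 0 higher and 0 lower of 8 with a median log2 fold change of -0.02, and neuropeptide genes 0 higher and 0 lower of 15 with a median log2 fold change of 0.05. Clustered protocadherins, adhesion proteins that give neurons their surface identity, had 2 higher and 0 lower of 27 with a median log2 fold change of 0.03, Pcdhb3 and Pcdhb9 being the higher ones, and without WT_SD replicate 6 there were 0. The synuclein family with Thy1 had 1 higher and 0 lower of 4 with a median log2 fold change of 0.02, Thy1 being the higher one.

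Antioxidant and glutathione genes had 3 higher and 0 lower of 30 with a median log2 fold change of -0.0086, the 3 being Gstp1, Prdx6 and Hmox2. Glycolysis genes had 1 higher and 2 lower of 24 with a median log2 fold change of -0.02, with the lactate transporter gene Slc16a1 the higher one. Transcripts of the mitochondrial genome had 1 higher and 1 lower of 15 with a median log2 fold change of -0.03, mt-Atp8 and mt-Co1, and 0 higher and 7 lower without WT_SD replicate 6. Ubiquitin and proteasome genes had 0 higher and 1 lower of 36 with a median log2 fold change of -0.0002, the lower one Psmc4. Glucocorticoid targets had 0 higher and 2 lower of 14 with a median log2 fold change of -0.10, Per1 and Tsc22d3, and that median was -0.0021 without WT_SD replicate 6. Oligodendrocyte markers had 1 higher and 0 lower of 6 with a median log2 fold change of 0.03. Precursor markers of that lineage had 0 higher and 0 lower of 3 with a median log2 fold change of -0.0076, and markers of cortex and hippocampus 0 higher and 0 lower of 3 with a median log2 fold change of 0.05. Of the ependyma list 1 gene was tested, with a log2 fold change of 0.20 and an unadjusted p over 0.05, and of the Schwann cell list none. Without surrogate variables the lists of glycine and GABA release and of AMPA, NMDA and kainate receptors had 0 higher, and that of antioxidant genes 1. Genes named here without a value were named after their values were seen.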
